A study of Mus musculus with 18 samples.

Results

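The skeletal muscle program of these mammary tumors was followed in 33 named genes, all found among the 57126 genes of the table. They were chosen by name and function, with earlier results of these data known. They were 6 myosin heavy chains, 2 myosin light chains, 7 genes of the thin filament, 8 of the Z-disc, titin and the filament scaffold, 5 of calcium handling, 2 of energy and oxygen supply, and 3 myogenic factors. Total RNA had been sequenced from pieces of 18 primary mammary tumors in 3 genotypes, MaP R172H/- (7 tumors), MaP R245W/- (5 tumors) and MaP -/- (6 tumors). All were females of an F1 hybrid between BALB/c and C57BL6/J, in which an adenovirus carrying Cre recombinase was injected into the mammary duct. In MaP R172H/- and MaP R245W/- mice, Cre leaves the duct epithelium with 1 Trp53 allele that makes the missense protein and 1 null allele, whereas in MaP -/- mice both alleles are lost. Host stroma and immune cells keep the wild-type gene. Some mutant tumors also carried a Rosa26 LSL-TdTomato reporter. Ages were not given in the labels used here. The 6 MaP -/- tumors came from 4 mice, and the 12 mutant tumors each came from a mouse of its own. For mice JM779 and JM836 the labels name tumor T1, whereas the study marks tumor T2 as sequenced, with another histology. The names JM779-T1 and JM836-T1 follow the labels, and which tumor was sequenced could not be settled here.

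Skeletal muscle fibers contract through sarcomeres, in which thick filaments of myosin slide along thin filaments of actin, with troponin as the calcium switch on the thin filament. Most of these proteins come in isoforms from separate genes. Myh1, Myh2 and Myh4 encode the fast adult myosin heavy chains IIx, IIa and IIb, Myh7 encodes the slow chain that the heart also uses, and Myh3 and Myh8 encode the embryonic and perinatal chains of developing or regenerating fibers. Pax7 marks the satellite cells that regenerate muscle, Myod1 commits them to the myogenic lineage, and Myog drives their terminal differentiation. The mammary fat pad lies against skin and body wall muscle, and sarcomatoid mammary tumors can themselves differentiate along a muscle line.

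Each tumor held between 23113578 and 37365062 counts. Levels are given in CPM, counts scaled to 1000000 per tumor with TMM library sizes, so 3 counts, taken here as the limit that a count of 0 allows, stood for 0.086 to 0.135 CPM. Trp53, the targeted gene, was read at 10.8 to 50.3 CPM in MaP R172H/- tumors (median 45.8), 9.09 to 59.0 in MaP R245W/- tumors (median 27.1) and 9.43 to 21.6 in MaP -/- tumors (median 12.2), and these ranges overlapped. All MaP R172H/- libraries were read on a HiSeq instrument and all others on a NovaSeq instrument, so a difference of platform and one of genotype cannot be told apart where MaP R172H/- tumors are compared. In bulk samples, fewer cells of a type and less RNA per cell cannot be told apart either. The study classed JM1233, JM1133 and RM0014 as metaplastic sarcomatoid carcinomas, JM1126 as a sarcoma and JM1564 as an adenocarcinoma. MaP -/- tumors JM663-T1 and JM663-T2 were also classed as metaplastic sarcomatoid carcinomas, and all MaP R172H/- tumors as nonmetaplastic adenocarcinomas. Its molecular subtype was luminal B or HER2-enriched for MaP R172H/- tumors and triple-negative for all others. Where MaP R172H/- tumors are compared, subtype and genotype thus cannot be told apart either, and histology differed too.

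The fast and developmental myosin genes stand in a row on chromosome 11 of GRCm39, in the order Myh3 (chr11:66969126-66993117), Myh2 (chr11:67061838-67088989), Myh1 (chr11:67089132-67116631), Myh4 (chr11:67128336-67151274) and Myh8 (chr11:67167746-67199462), and Myh7 lies apart on chromosome 14 (chr14:55208141-55232084). Their coding sequences are close copies, and it is the bases at which they differ that let reads be assigned to 1 isoform. Myh1 and Myh2 were identical at 91.0% of 5826 aligned coding bases, Myh1 and Myh4 at 90.1%, and Myh1 and the slow Myh7 at 77.2%. The 60 coding bases in which the 6 genes differed at the most positions are printed here from the GENCODE M39 transcripts, with bases unlike Myh4 in capitals.
Myh4: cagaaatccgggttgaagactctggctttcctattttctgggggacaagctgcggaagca
Myh1: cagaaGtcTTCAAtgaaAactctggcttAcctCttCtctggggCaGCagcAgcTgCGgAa
Myh2: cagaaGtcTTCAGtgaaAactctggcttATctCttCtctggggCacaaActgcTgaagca
Myh8: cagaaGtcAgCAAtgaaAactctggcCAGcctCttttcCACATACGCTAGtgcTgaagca
Myh7: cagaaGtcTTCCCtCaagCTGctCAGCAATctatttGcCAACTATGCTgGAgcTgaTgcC
Myh3: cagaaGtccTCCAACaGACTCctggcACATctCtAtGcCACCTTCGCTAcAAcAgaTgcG
In this window Myh2 differed from Myh4 at 14 bases, Myh1 at 18, Myh8 at 23, Myh7 at 33 and Myh3 at 35. Windows of 76 bases, the shorter of the read lengths used, were shared exactly with another gene of the set at 14.3% of the positions of the Myh2 transcript, 12.8% of Myh1, 11.1% of Myh8, 9.18% of Myh4, 0.537% of Myh3 and none of Myh7. Reads from such stretches were divided between the genes by the counting model, so the split among Myh1, Myh2, Myh4 and Myh8 is less certain than the split between fast and slow chains. No such window was shared among the skeletal, cardiac and smooth muscle actins Acta1, Actc1, Acta2 and Actg2, or among the troponins Tnnt1, Tnnt3, Tnni1 and Tnni2.

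The muscle program was concentrated in 3 of the 5 MaP R245W/- tumors. The summed level of the 33 genes was 8063 CPM in JM1233, 692.8 CPM in JM1133 and 223.5 CPM in JM1126, against 91.5 CPM in JM1564 and 46.7 CPM in RM0014. The 7 MaP R172H/- tumors ran from 68.3 to 182 CPM (median 91.1), and the 6 MaP -/- tumors from 41.0 to 195.6 CPM (median 79.6). The other 2 MaP R245W/- tumors thus lay within the range of the other genotypes, and JM1126 stood only a little above the highest of them, MaP -/- tumor JM779-T1. As a share of all counts without TMM scaling, JM1126 at 0.0189% (0.0184 to 0.0193) and JM779-T1 at 0.0189% (0.0184 to 0.0193) agree within sampling noise, so the sum alone does not set JM1126 apart. The group mean of MaP R245W/- tumors, 1823 ± 3497 CPM (SD, n = 5), had an SD larger than the mean, against 107.2 ± 40.4 (SD, n = 7) in MaP R172H/- and 102.7 ± 59.1 (SD, n = 6) in MaP -/- tumors.

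The sum is dominated by Ttn, which encodes the giant spring protein titin and supplied between 11.4% of it in YZ7 and 69.5% in JM779-T1. The number of genes detected was a second guide that does not weigh long genes. At 1 CPM or more, 30 of the 33 genes were detected in JM1233, 27 in JM1133 and 19 in JM1126. Between 5 and 15 were detected in each of the other 15 tumors, with the highest number in YZ3. By this measure JM1126 stood above every tumor outside the group, whereas JM779-T1, whose sum was nearly as large, had 8 genes detected. Per kilobase of transcript, which compares genes of unequal length, the summed level was 1036 in JM1233, 143.4 in JM1133 and 51.6 in JM1126, against 9.56 to 36.7 CPM per kilobase in the other 15 tumors.

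**Figure D1:**
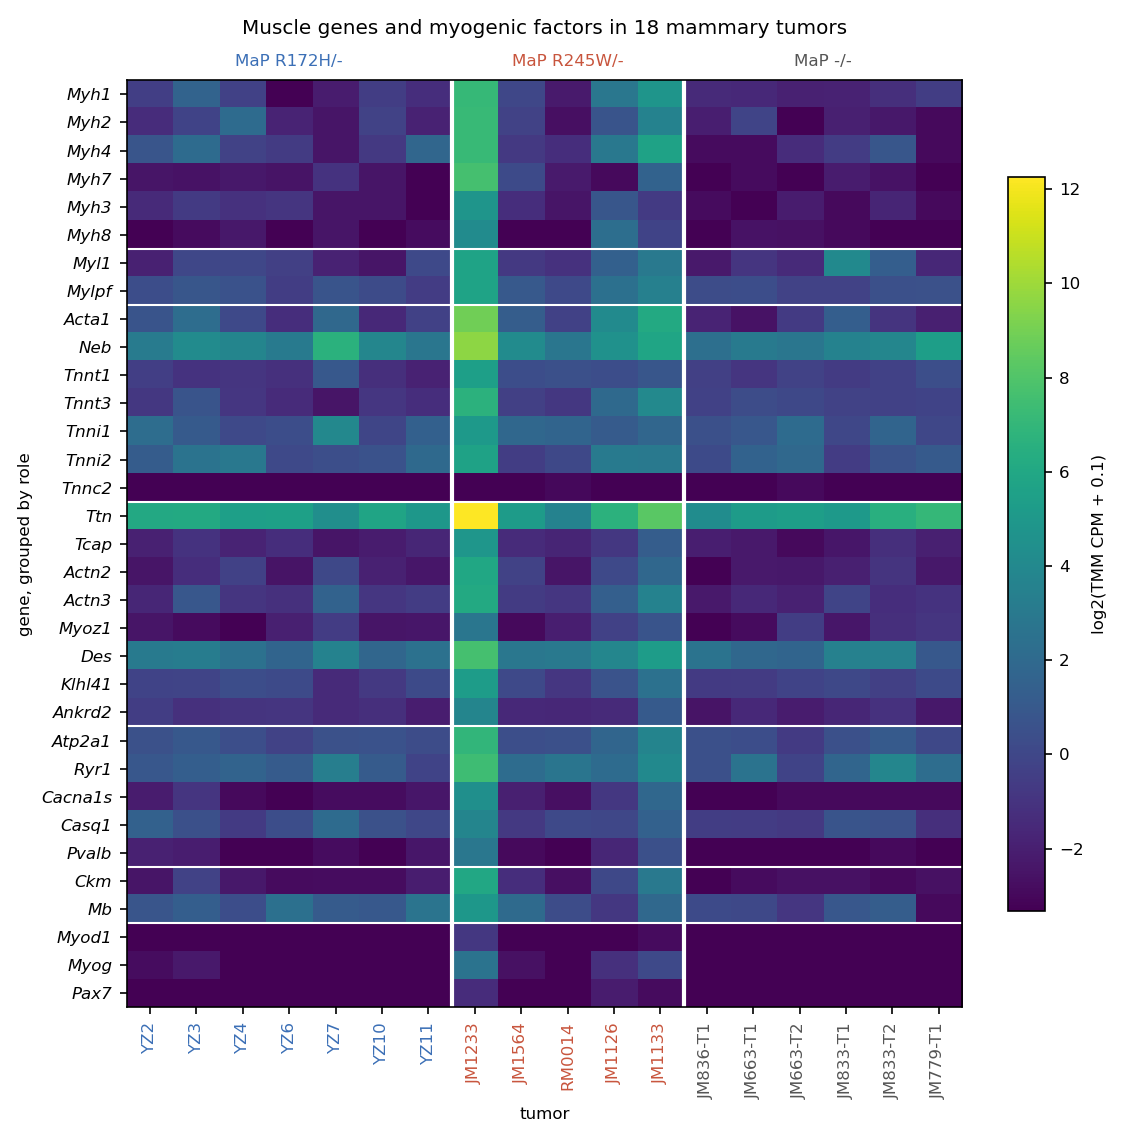
Heat map of log2(TMM CPM + 0.1) for the 33 genes (rows, grouped by role from myosin heavy chains at the top to myogenic factors at the bottom) in the 18 tumors (columns, by genotype). JM1233 is bright in nearly every row, JM1133 and JM1126 are brighter than other tumors in most rows, and Neb, Ttn and Des are above 1 CPM in every tumor.

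**Figure D2:**
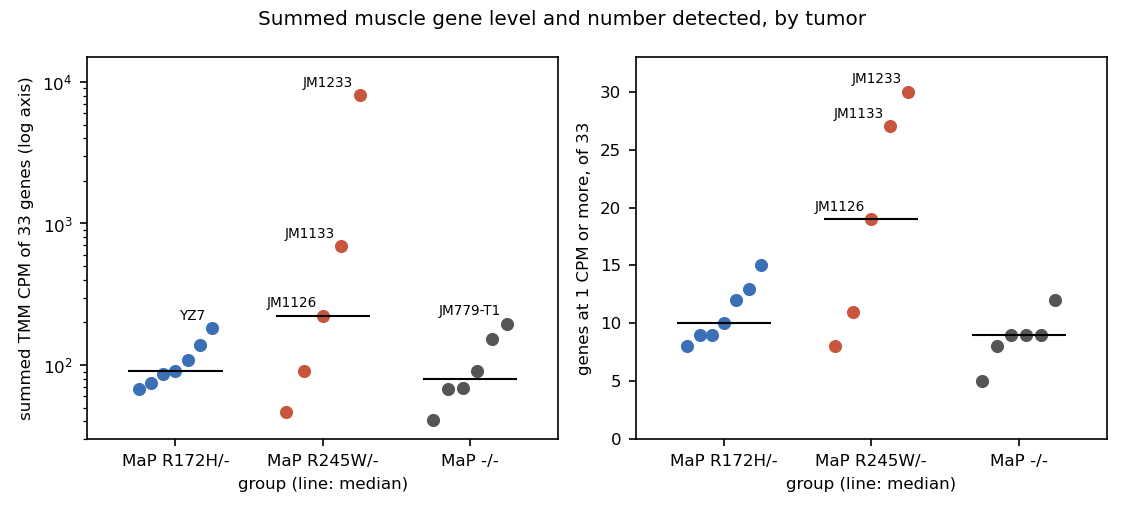
Left, summed TMM CPM of the 33 genes per tumor on a log axis; right, number of the 33 genes at 1 CPM or more. Points are tumors and lines are group medians; JM1233 (8063 CPM, 30 genes), JM1133 (692.8 CPM, 27 genes) and JM1126 (223.5 CPM, 19 genes) lie above the other 15 tumors in both panels.

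Across the 30 structural genes, JM1233 was the highest of the 18 tumors for 29. The exception was Tnnc2, the fast skeletal troponin C, which had at most 1 count in any tumor, JM1233 included. It overlaps another gene on the opposite strand in the annotation. Whether the overlap bears on this count was not tested, and the level of Tnnc2 was not interpreted. For those 29 genes the level in JM1233 was a median of 6.36 times that of the next tumor, from 2.21 times for Tnni1 to 71.8 times for Myh7. JM1133 was above all of the 15 remaining tumors for 23 of the 29 genes and JM1126 for 17, namely all but Myh2, Myh7, Myl1, Neb, Tnnt1, Tnni1, Ttn, Actn3, Ankrd2, Ryr1, Casq1 and Mb. JM1133 exceeded JM1126 for 26 of the 29 genes, and the 3 that were higher in JM1126 were Myh3, Myh8 and Tnni2.

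Acta1, the actin of the skeletal thin filament, was among the genes that separated the tumors most. Its level was 476.2 CPM in JM1233, 69.5 in JM1133, 17.7 in JM1126, 2.29 in JM1564 and 0.717 in RM0014. MaP R172H/- tumors ran from 0.247 to 4.63 CPM (median 0.994), and MaP -/- tumors from 0.0726 to 2.47 CPM (median 0.297). JM1233, JM1133 and JM1126 were therefore above all others, and the remaining MaP R245W/- tumors overlapped both groups. Neb, the molecular ruler nebulin that sets thin filament length, was at 778.1 CPM in JM1233, 57.4 in JM1133, 23.2 in JM1126, 18.3 in JM1564 and 6.85 in RM0014, but reached 101.2 CPM in MaP R172H/- tumor YZ7 and 42.3 CPM in MaP -/- tumor JM779-T1. Those last values came with little Acta1, at 3.79 CPM in YZ7 and 0.162 CPM in JM779-T1.

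The fast myosin heavy chains followed Acta1. Myh4 (IIb) was at 147.4 CPM in JM1233, 49.5 in JM1133, 7.61 in JM1126, 0.495 in JM1564 and 0.315 in RM0014, with MaP R172H/- tumors at 0.088 to 4.20 CPM (median 0.729) and MaP -/- tumors at 0.0323 to 1.69 CPM (median 0.167). Myh1 (IIx) was at 139.6, 28.4, 7.16, 0.896 and 0.115 CPM in the same order of tumors, with 0 to 2.97 CPM in MaP R172H/- (median 0.617) and 0.165 to 0.614 CPM in MaP -/- tumors (median 0.259). Myh2 (IIa) was at 144.8, 11.9, 1.53, 0.742 and 0.0574 CPM in that order, with 0.088 to 4.21 CPM in MaP R172H/- (median 0.302) and 0 to 0.799 CPM in MaP -/- tumors (median 0.126). For Myh1 and Myh4 the 3 tumors did not overlap the rest, whereas for Myh2 the MaP R172H/- tumor YZ4, at 4.21 CPM, was above JM1126.

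The slow and developmental chains were spread differently over these tumors. Myh7 (slow) was at 205.6 CPM in JM1233 and 2.86 in JM1133, then 1.02 in JM1564, 0.115 in RM0014 and 0.032 in JM1126, where it had 1 count. Its other values were 0 to 0.396 CPM in MaP R172H/- tumors (median 0.0822) and 0 to 0.123 CPM in MaP -/- tumors (median 0.0182). JM1233 thus stood at 71.8 times the next level, and JM1126 lay within the range of the 15 lower tumors. Myh8 (perinatal) was at 18.3 CPM in JM1233, 4.83 in JM1126 and 0.764 in JM1133, was at 0 in JM1564 and RM0014, and stayed at 0 to 0.0994 CPM in the other 13 tumors. Myh3 (embryonic) was at 27.7 CPM in JM1233, 1.73 in JM1126, 0.535 in JM1133, 0.309 in JM1564 and 0.086 in RM0014, against 0 to 0.53 CPM in MaP R172H/- (median 0.259) and 0 to 0.203 CPM in MaP -/- tumors (median 0.035). For both developmental chains JM1126 was second, ahead of JM1133.

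Among the light chains, Mylpf (fast regulatory light chain) ran from 0.587 to 1.95 CPM in the 15 lower tumors and stood at 51.8 CPM in JM1233, 11.2 in JM1133 and 5.28 in JM1126. Myl1 (fast essential light chain) was at 53.1, 7.94 and 2.62 CPM in these 3 tumors, but MaP -/- tumor JM833-T1 reached 17.0 CPM of Myl1 with 0.586 CPM of Myh4. That tumor also held the most adipocyte marker RNA, with a sum of 4276 CPM over 7 markers such as Adipoq and Plin1 against 8.39 to 493.7 CPM in the others. Whether those cells bear on Myl1 was not tested.

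The troponin T and I isoforms differed in how far they followed Acta1. Tnnt3 (fast troponin T) was at 103.4 CPM in JM1233, 16.3 in JM1133, 4.0 in JM1126, 0.68 in JM1564 and 0.487 in RM0014, with 0.088 to 1.55 CPM in MaP R172H/- (median 0.452) and 0.709 to 1.13 CPM in MaP -/- tumors (median 0.758). Tnnt1 (slow troponin T) was at 44.8 CPM in JM1233, and then at 1.68 in JM1133, 1.32 in RM0014, 1.21 in JM1564 and 1.18 in JM1126. MaP R172H/- tumors held 0.181 to 1.89 CPM of Tnnt1 (median 0.389) and MaP -/- tumors 0.436 to 1.26 CPM (median 0.693). Slow troponin T was thus raised in JM1233 and overlapped between the groups in all other tumors.

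Tnni2 (fast troponin I) was at 50.4 CPM in JM1233, 8.28 in JM1126, 7.75 in JM1133, 0.946 in RM0014 and 0.618 in JM1564. Its levels were 0.978 to 7.32 CPM in MaP R172H/- tumors (median 2.20) and 0.586 to 3.83 CPM in MaP -/- tumors (median 1.75), so JM1126 and JM1133 were hardly above YZ4 at 7.32 CPM. Tnni1 (slow troponin I) was at 33.5 CPM in JM1233, 3.52 in JM1564, 3.44 in JM1133, 3.21 in RM0014 and 2.11 in JM1126. It ran from 0.863 to 15.1 CPM in MaP R172H/- (median 2.05) and from 0.894 to 4.19 CPM in MaP -/- tumors (median 1.55), with the 15.1 CPM in YZ7. Only JM1233 lay outside the range of the others for Tnni1.

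Among scaffold genes, Des, the intermediate filament desmin that smooth muscle and pericytes also make, was at 206.7 CPM in JM1233, 39.6 in JM1133, 14.3 in JM1126, 7.77 in RM0014 and 7.11 in JM1564. MaP R172H/- tumors held 3.17 to 12.0 CPM of Des (median 5.55) and MaP -/- tumors 1.88 to 11.6 CPM (median 4.81). Ttn was at 4924, 307 and 104.4 CPM in JM1233, JM1133 and JM1126 and at 11.7 to 135.9 CPM in the other 15 tumors, with the highest of these in JM779-T1. The Z-disc genes Tcap (telethonin), Actn2 (the alpha-actinin of all fibers), Actn3 (the alpha-actinin of fast fibers) and Myoz1, the Kelch protein gene Klhl41 and the stretch-responsive Ankrd2 were at 6.87 to 70.2 CPM in JM1233 and at 1.56 to 11.8 CPM in JM1133. In the 15 lower tumors these 6 genes had medians of 0.0903 to 0.791 CPM. Ankrd2, which slow fibers favor, was at 0.256 CPM in JM1126, near the median of 0.254 CPM in the lower tumors.

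Calcium handling and energy genes were highest in JM1233, and JM1126 stood above the lower tumors for some of them. Atp2a1 (the fast calcium pump SERCA1) was at 122.4 CPM in JM1233, 13.1 in JM1133 and 3.23 in JM1126, and at 0.527 to 2.06 CPM in the 15 lower tumors. Ryr1 (the calcium release channel) and Cacna1s (its voltage sensor) were at 170.2 and 21.3 CPM in JM1233 and at 16.9 and 3.55 CPM in JM1133. In JM1126 Cacna1s was at 0.48 CPM, just above the lower tumors, and Ryr1 at 4.29 CPM lay within their range of 0.767 to 14.0 CPM. Casq1 (calsequestrin, the calcium store protein) rose less, to 13.5 CPM in JM1233 and 2.79 in JM1133, against 4.31 CPM in YZ7 and 0.895 CPM in JM1126. Pvalb (parvalbumin, a calcium buffer of fast fibers) was at 7.17 CPM in JM1233, 1.3 in JM1133, 0.224 in JM1126, 0.0309 in JM1564 and 0 in RM0014. Pvalb was at 0 to 0.173 CPM in MaP R172H/- tumors (median 0.044) and 0 to 0.0338 CPM in MaP -/- tumors (median 0), and JM1126 was the third of the 18 tumors with only 7 counts.

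Ckm, the muscle creatine kinase that regenerates ATP, was at 64.3 CPM in JM1233, 7.71 in JM1133, 0.959 in JM1126, 0.309 in JM1564 and 0.0574 in RM0014. It was at 0.0391 to 0.742 CPM in MaP R172H/- (median 0.0864) and 0 to 0.0659 CPM in MaP -/- tumors (median 0.049), so the 3 tumors did not overlap the rest. Mb (myoglobin, the oxygen store of oxidative fibers) was at 30.9 CPM in JM1233, but at 3.74 CPM in JM1133 and 0.48 CPM in JM1126 it lay within the 0.0323 to 6.23 CPM of the 15 lower tumors.

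Read as shares, the 3 tumors differed in isoforms. A share was computed where a tumor held at least 100 counts of a family, with an exact 95% Clopper-Pearson interval that covers counting error only. In JM1233, 22891 counts fell on the 6 myosin heavy chain genes, and 63.2% of them (62.5 to 63.8) were fast, 30.1% (29.5 to 30.7) were Myh7 and 6.73% (6.41 to 7.06) were developmental. In JM1133, 95.6% (94.7 to 96.4) of 2462 counts were fast, 3.05% (2.40 to 3.80) were Myh7 and 1.38% (0.958 to 1.92) were developmental. In JM1126, 71.2% (67.8 to 74.5) of 716 counts were fast, 0.14% (0.00354 to 0.776) were Myh7 and 28.6% (25.3 to 32.1) were developmental. JM1233 was therefore mixed fast and slow, JM1133 almost wholly fast, and JM1126 fast with a developmental part, and none of the intervals for the slow and the developmental shares overlapped among these tumors.

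Within the fast chains, the IIb gene Myh4 led in JM1133 with 52.6% (50.7 to 54.6) of all myosin heavy chain counts. In JM1233 the shares of Myh1, Myh2 and Myh4 were close to even, at 20.4%, 21.2% and 21.6%. In JM1126 Myh4 at 33.2% and Myh1 at 31.3% were followed by the perinatal Myh8 at 21.1% (18.2 to 24.3), and Myh2 held 6.70%. Dividing by transcript length left the order of fast, slow and developmental shares in each of the 3 tumors as it was, with developmental chains at 30.4% in JM1126. Among the lower tumors, YZ3, YZ4 and JM1564 reached 100 counts. YZ3 held 243 counts with 49.0% Myh4, YZ4 held 187 counts with 67.9% (60.7 to 74.5) Myh2, and JM1564 held 112 counts with 29.5% (21.2 to 38.8) Myh7. Faint signals outside the 3 tumors thus also differed in isoform.

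The troponin pairs gave a partly different picture. Tnnt3 made up 69.8% (68.5 to 71.1) of troponin T counts in JM1233, 77.2% (69.9 to 83.4) in JM1126 and 90.6% (87.6 to 93.1) in JM1133, so that JM1133 had the largest fast share, as for the myosins. Tnni2 made up 60.1% (58.2 to 61.9) of troponin I counts in JM1233, 69.3% (63.6 to 74.5) in JM1133 and 79.7% (74.9 to 83.9) in JM1126, which put JM1126 first. In the other tumors where it was computed, the Tnni2 share ranged from 7.53% (5.06 to 10.7) of 372 counts in YZ7 to 88.0% (83.4 to 91.8) of 251 counts in YZ4. Troponin I isoforms were therefore read at 100 counts or more in tumors with little Acta1, where the troponin T pair was not.

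**Figure D3:**
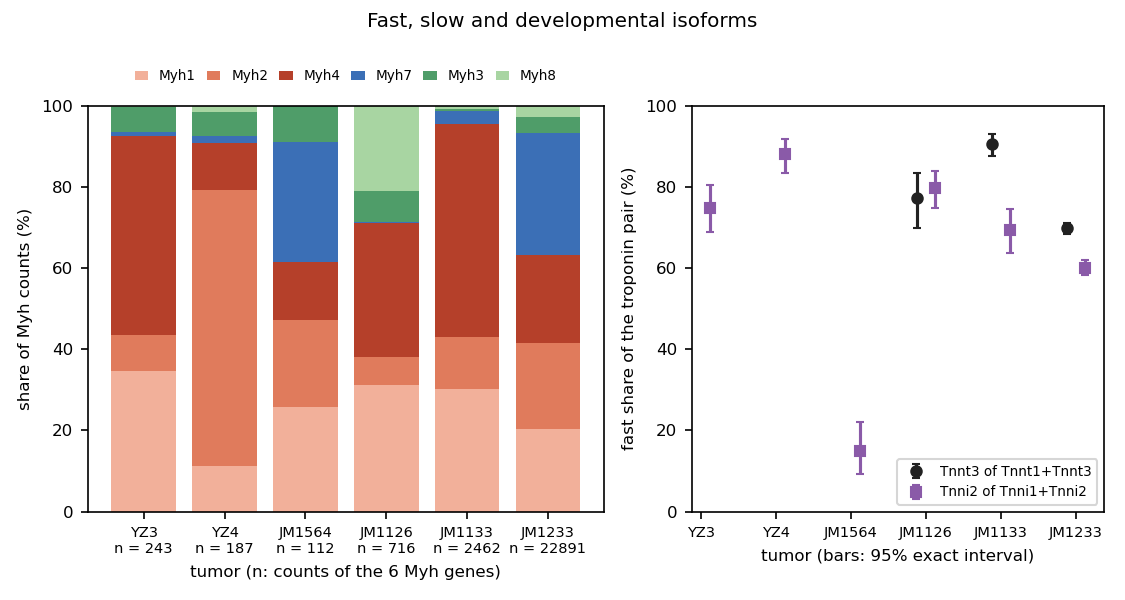
Left, shares of counts among 6 myosin heavy chain genes in the 6 tumors with at least 100 such counts, with fast chains in reds, the slow chain in blue and developmental chains in greens. Right, share of the fast isoform in each troponin pair with its exact 95% interval, shown for the same tumors where a pair had at least 100 counts; the Myh7 share is 30.1% in JM1233, 3.05% in JM1133 and 0.14% in JM1126.

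Scaled to Acta1, which removes the overall amount of muscle RNA, some genes had similar ratios in the 3 tumors and others did not. Tnnt3 was at 21.7 counts per 100 Acta1 counts in JM1233 (20.9 to 22.5), 23.4 in JM1133 (21.0 to 26.0) and 22.6 in JM1126 (18.5 to 27.5), and the intervals overlapped. Klhl41 was at 8.21, 7.97 and 8.50 counts per 100 in the same tumors. Actn3 was at 14.7, 17.0 and 14.3 per 100. For genes with few counts in JM1126, such as Pvalb with 7, the intervals were too wide to show whether the ratios differed. Ckm was at 13.5 (12.9 to 14.1) and 11.1 (9.56 to 12.9) per 100 in JM1233 and JM1133 but at 5.42 (3.62 to 7.83) in JM1126. Mb was at 6.48 (6.08 to 6.90), 5.39 (4.35 to 6.60) and 2.71 (1.51 to 4.51) per 100 in JM1233, JM1133 and JM1126. Its intervals in JM1133 and JM1126 overlapped, the latter on 15 counts. Tnni2 was at 46.8 (40.2 to 54.4) per 100 in JM1126 against 10.6 and 11.2 in JM1233 and JM1133. Tnni2 and Mb were also read in tumors with little Acta1, at medians of 1.49 and 1.76 CPM in the 15 lower tumors. In JM1126 these genes were at 8.28 and 0.48 CPM. Whether their ratios to Acta1 hold RNA from sources other than muscle was not tested. Relative to Acta1, JM1126 thus held less Ckm and more Myh8 and Myh3 than the other 2 tumors.

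**Figure D4:**
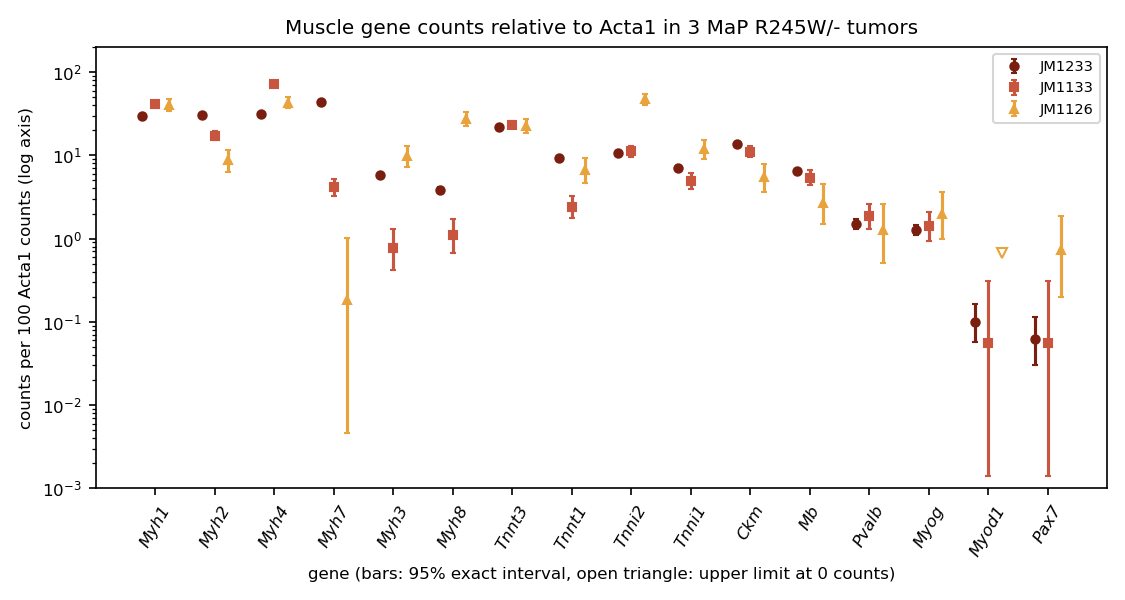
Counts per 100 Acta1 counts on a log axis for 16 genes in JM1233, JM1133 and JM1126, with exact 95% intervals that cover counting error; an open triangle is the upper limit where a gene had 0 counts. Tnnt3 lies between 21.7 and 23.4 in the 3 tumors, Myh7 falls from 43.2 in JM1233 to 0.181 in JM1126, and Myh8 is highest in JM1126 at 27.3.

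Of the 3 myogenic factors, Myog accompanied the structural genes in JM1233, JM1133 and JM1126, at low counts. Myod1 and Pax7 had only 1 count each in JM1133. Myog was at 6.06 CPM (203 counts) in JM1233, 0.993 CPM (26 counts) in JM1133, 0.352 CPM (11 counts) in JM1126, 0.0618 CPM (2 counts) in JM1564 and 0 in RM0014. Outside this group it had 3 counts in YZ3, 1 count in YZ2 and none in the other 11 tumors. Relative to Acta1, Myog was at 1.27 (1.10 to 1.46), 1.43 (0.931 to 2.10) and 1.99 (0.987 to 3.59) counts per 100 in JM1233, JM1133 and JM1126, with intervals that overlapped but rest on 11 counts in JM1126. Myod1 was at 0.478 CPM (16 counts) in JM1233 and 0.0382 CPM (1 count) in JM1133, and at 0 in JM1564, RM0014, JM1126 and all MaP R172H/- and MaP -/- tumors. Pax7 was at 0.298 CPM (10 counts) in JM1233, 0.128 CPM (4 counts) in JM1126 and 0.0382 CPM (1 count) in JM1133, and at 0 in the other 15 tumors. Per 100 Acta1 counts, Pax7 was at 0.0627 (0.03 to 0.115) in JM1233 and 0.723 (0.196 to 1.86) in JM1126, with intervals that did not overlap, though the latter rests on 4 counts. Myod1 in JM1126 could be as high as 0.669 per 100 Acta1 counts, so a lower Myod1 share was not detectable there at this depth. All 3 factors failed the filter on low counts in the main fit of every comparison. Of the fits that did test them, DESeq2 called Myog higher in MaP R245W/- than in MaP -/- tumors (adjusted p = 0.00311) and than in MaP R172H/- tumors (adjusted p = 0.0099), and edgeR without a filter called it in the second of these comparisons only (FDR 0.0306, against 0.498 in the first). DESeq2 gave Myod1 and Pax7 no adjusted p, and edgeR without a filter did not call them, with FDRs of 0.512 and 0.498 against MaP -/- tumors and 0.19 and 0.14 against MaP R172H/- tumors.

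Among 9 further myogenic and fusion genes, several were read mainly in JM1233. Myf6, a myogenic factor of mature fibers, had 154 counts in JM1233, 38 in JM1133, none in JM1126 and at most 3 elsewhere. The fusion genes Mymk (myomaker) and Mymx (myomixer) had 25 and 11 counts in JM1233, and 5 and 2 in JM1126 against 1 and 0 in JM1133. Vgll2 had 45 counts in JM1233 and at most 1 in any other tumor, and Myf5 had 5 counts in JM1233 and at most 1 elsewhere. Pax3 did not follow the muscle genes, with 2 counts in JM1233 and 531 in YZ11. Among subunits of the acetylcholine receptor, the fetal Chrng had 35 counts in JM1233 against 3 to 19 elsewhere, and Chrnd had 60 against at most 6.

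Other muscle genes, in lists by role, were read in the same tumors to different degrees. The 5 other slow fiber genes (Tnnc1, Myl2, Myl3, Myoz2 and Casq2) summed to 112.3 CPM in JM1233, 5.54 in JM1133 and 4.38 in JM1126, against 0.903 to 14.3 CPM elsewhere, so that only JM1233 lay outside the range. Myl2, the slow regulatory light chain, had 1365 counts in JM1233, 33 in JM1133 and 0 in JM1126, the same order as Myh7. The 23 other genes of the Z-disc, M-band and thick filament summed to 1133 CPM in JM1233, 146.3 in JM1133 and 125.3 in JM1126. In JM1126 this sum was largely Xirp2, an actin-binding repeat protein of cell junctions in muscle, with 2721 counts against 1018 in JM1133 and 7943 in JM1233. The 5 other developmental isoforms, among them Actc1 and Tnnt2, summed to 33.9 CPM in JM1233 and to 149 CPM in JM1126. Tumors of the other genotypes ran from 9.15 to 135.5 CPM, and Tnnt2, the cardiac troponin T that embryonic skeletal muscle also makes, had 4468 counts in JM1126 and 3087 in YZ2. The 11 genes of the triad and excitation, 8 of the neuromuscular junction and 11 of muscle energy metabolism summed to 141.3, 34.5 and 354.6 CPM in JM1233. In the other 17 tumors these sums were 11.6 to 96.6, 12.7 to 51.2 and 60.8 to 206.9 CPM, and for the junction genes JM1233 thus lay within the range.

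Heart muscle markers did not follow these genes. The 8 markers of cardiac muscle summed to 3.22 CPM in JM1233, 6.53 in JM1133 and 7.87 in JM1126, within the 2.57 to 14.3 CPM of the other 15 tumors. Of the defining genes, Myl7 was at 0 in JM1233 and JM1133 and at 1 count in JM1126, Nppa had 3, 0 and 1 counts, and Myh6 had 10, 4 and 0. YZ7 was the tumor with the most Myh6, at 132 counts, together with 689 counts of Actc1 and the Neb and Tnni1 given above. In YZ7 the 5 Schwann cell markers summed to 1087 CPM, and the 8 smooth muscle and myoepithelial markers to 2088 CPM, each the highest of the 18 tumors, and the 7 epithelial markers to 368.9 CPM. Their part in those values was not tested.

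Other cell types also differed among the tumors that carried the muscle genes. In JM1233 the 7 epithelial markers summed to 473.2 CPM, against 3686 to 5736 CPM in the 4 other MaP R245W/- tumors. JM779-T1 at 161.5 CPM and YZ7 at 368.9 CPM were lower still. Of these markers, Krt5 was at 0 in JM1233, but also had only 1, 4 and 13 counts in JM1133, RM0014 and JM1564, against 110 in JM1126. The summed level of the 33 muscle genes was 195.6 CPM in JM779-T1 and 182 CPM in YZ7, against 8063 CPM in JM1233. The 5 fibroblast markers summed to 17979 CPM in JM1126 and 7434 CPM in JM1233, the 2 highest values, while JM1133 at 2224 CPM lay inside the 1081 to 4472 CPM of the rest. The 8 smooth muscle and myoepithelial markers summed to 703.7 CPM in JM1233, 913.1 in JM1126 and 270.2 in JM1133, against 66.6 to 2088 CPM elsewhere. The 5 Schwann cell markers summed to 38.2 CPM in JM1233, 41.4 in JM1126 and 326.9 in JM1133, and the 7 adipocyte markers to 23.4, 50.0 and 22.7 CPM. The 3 endothelial markers summed to 225.1, 440.1 and 236.6 CPM and the 3 leukocyte markers to 419.2, 442.7 and 141.9 CPM in these tumors. Of the 5 fibroblast markers, JM1126 was the highest tumor for 3 and JM1233 for 0. The fibroblast sum of JM1233 was largely Col1a1 and Col1a2, with 91165 and 127091 counts. For Pdgfra, Dcn and Lum it had 4010, 21598 and 5164 counts, against 7819, 24446 and 6410 in MaP -/- tumor JM833-T1. JM1233 and JM1126 thus had high fibroblast sums and JM1133 did not, but in JM1233 this rested on the 2 collagens. The part of these cells in the muscle values was not tested.

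The first comparisons asked whether tumors with a p53 missense protein differed from tumors without p53 in the muscle genes. These genes were chosen with earlier results of these data known, so their counts beside shares over all genes are descriptive. A gene was called at a Benjamini-Hochberg FDR below 0.05 over all genes tested and a log2 fold change beyond 2, in edgeR's quasi-likelihood test. P-values measure the spread between tumors, and 2 pairs of MaP -/- tumors that shared a mouse were entered as separate tumors. Between MaP R245W/- and MaP -/- tumors, 21 of the 33 genes passed the filter on low counts, and none was called, as was true of all 21452 genes tested (0%). Acta1 was 7.44 higher on the log2 scale (SE 1.67, edgeR FDR 0.33), Myh2 7.26 higher (SE 1.82, FDR 0.36) and Tnnt3 4.89 higher (SE 1.21, FDR 0.36). At an unadjusted p below 0.05, 20 of the 21 genes were higher, against 5.32% of all genes tested, and none was lower, against 6.46%. In all, 2527 genes passed this limit. Without JM1233, 12 of 21 were higher at this limit, against 7.21% of all genes tested. DESeq2's Wald test gave a p-value to 24 of the 33 genes and called 16 of them higher, against 0.137% of 42256 genes. It was not run without JM1233. Without JM1233 no gene of 21880 was called in edgeR (0%), and Acta1 was 5.12 higher (edgeR FDR 0.189), Myh2 4.10 higher (FDR 0.22), Tnnt1 0.88 instead of 3.78 higher (FDR 0.245) and Myl1 0.27 lower (a log2 fold change of -0.27, FDR 0.939).

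Between MaP R172H/- and MaP -/- tumors, 18 of the 33 genes passed the filter and none was called, against 0.32% of 20954 genes called higher and 1.05% called lower. At an unadjusted p below 0.05, Actn3 (log2 fold change 1.47, edgeR FDR 0.175), Mb (1.46, FDR 0.179) and Casq1 (1.11, FDR 0.193) were higher and Myl1 lower (-2.58, FDR 0.158), where 11.6% of all genes tested were higher and 13.1% lower. The last rests on JM833-T1, without which the log2 fold change of Myl1 was -0.31. Acta1 was 1.46 higher (SE 0.85, edgeR FDR 0.307) and Myh4 1.84 higher (SE 0.96, FDR 0.254), and these differences did not exceed the spread between tumors. With each tumor left out in turn, Acta1 ranged from 0.96 without YZ3 to 2.68 without JM833-T1, and Myh4 from 1.36 without YZ3 to 2.95 without JM833-T2.

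The mutants were then compared with each other in 1 fit of all 18 tumors. Here 24 of the 33 genes passed the filter, 19 were called higher in MaP R245W/- tumors and none lower, against 1.76% of 22481 genes called higher and 0.578% called lower. This count is descriptive too, because the genes were chosen with earlier results of these data known. DESeq2 gave a p-value to 31 of the 33 genes and called 24 of them higher, against 1.66% of 44950 genes. The median log2 fold change was 4.88 over 4 tested myosin heavy chains, 3.45 over 6 thin filament genes and 3.91 over 8 scaffold genes, against -0.0028 over all genes tested. Acta1 was 6.01 higher (SE 1.32, edgeR FDR 0.00766), Tnnt3 5.57 (SE 1.04, FDR 0.00244), Myh1 5.50 (SE 1.24, FDR 0.00955) and Mylpf 3.60 (SE 0.70, FDR 0.00323). Of 12 genes listed as fast adult, a list without Myl1, 10 were tested and 8 called, with a median of 4.29. The 8 were Myh1, Myh2, Myh4, Tnnt3, Mylpf, Atp2a1, Actn3 and Myoz1. Myl1 was called as well (4.53, SE 1.34, edgeR FDR 0.0411). Of 4 slow genes, 3 were tested and Tnnt1 (4.05, SE 0.91, edgeR FDR 0.00901) and Ankrd2 (3.15, SE 0.85, FDR 0.0258) were called. Of the developmental chains, Myh3 was tested and called (4.55, SE 1.15, edgeR FDR 0.0195). Neb, Tnni1, Tnni2, Casq1 and Mb were tested and not called, with log2 fold changes of 2.85, 1.21, 2.03, 1.08 and 1.45.

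These calls rested largely on JM1233. Without it 4 of the 24 genes remained called, namely Acta1 (log2 fold change 3.68, edgeR FDR 0.0449), Myh1 (3.56, FDR 0.0481), Mylpf (2.04, FDR 0.0154) and Tnnt3 (3.35, FDR 0.0112), against 1.67% of 22933 genes called higher. All 4 are fast fiber genes or the actin common to fast and slow fibers. Atp2a1 lost its call through the fold change alone (1.85, edgeR FDR 0.0375), Tnnt1 fell to 1.16 (FDR 0.145) and Myh3 to 1.37 (FDR 0.305), and Tnni1, Casq1 and Mb turned to -0.36, -0.45 and -0.33. Myl1, Myoz1, Myh2 and Myh4 also lost their calls without single tumors other than JM1233, Myl1 in 8 of 17 such fits, Myoz1 in 7, Myh2 in 5 and Myh4 in 4. In a fit of the 2 mutant groups alone, 13 of 22 tested genes were called, against 1.22% of 20883 genes called higher. The ranges of the MaP R245W/- and MaP R172H/- tumors overlapped for all 24 genes.

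**Figure D5:**
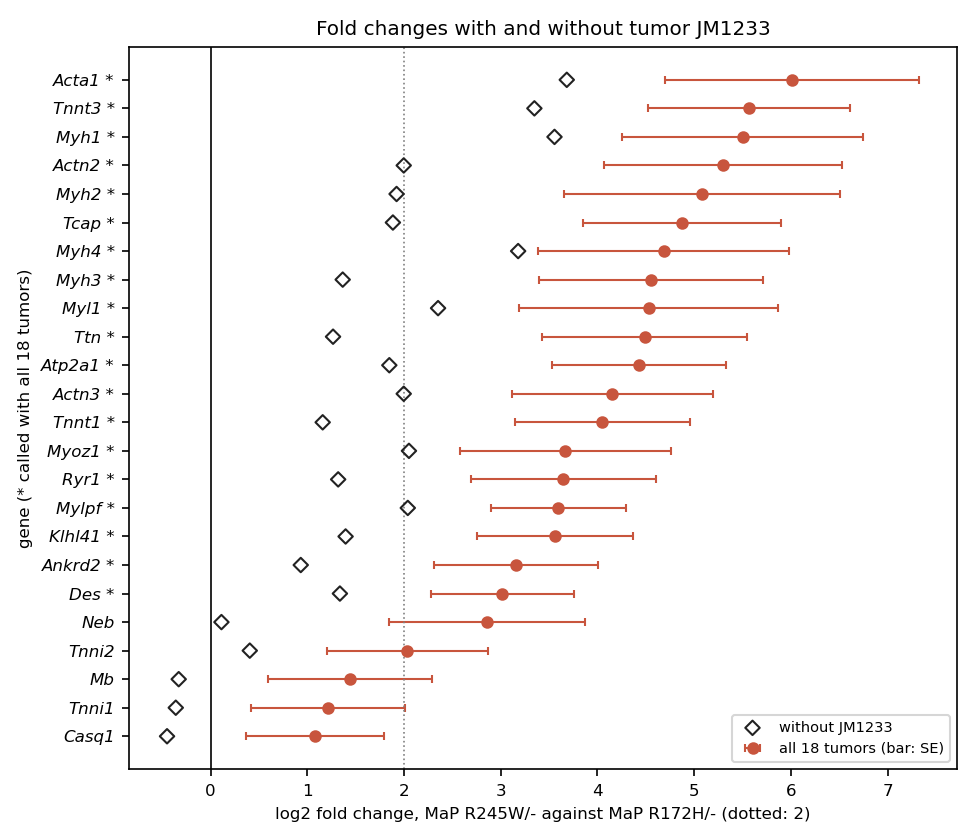
Log2 fold changes of 24 tested genes in MaP R245W/- against MaP R172H/- tumors. Filled points with SE bars are from all 18 tumors and open diamonds from the fit without JM1233; Acta1 moves from 6.01 to 3.68, and Tnni1, Mb and Casq1 cross 0.

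The other muscle lists were read in the same fit of all 18 tumors, in which 1.76% of 22481 genes were called higher. They were not read in the fit without JM1233. Of the 23 other genes of the Z-disc, M-band and thick filament, 14 were tested and 6 called higher, among them Mybpc1, Mybpc2, Xirp2, Trim72 and Nrap, with a median of 2.33. JM1233 was the highest tumor for 21 of the 23. Of 11 energy metabolism genes, 9 were tested and Pygm, the muscle glycogen phosphorylase, and Ampd1, the muscle AMP deaminase, were called. Of 5 other slow fiber genes, 2 were tested and Tnnc1, the slow and cardiac troponin C, was called. None was called among the 9 triad genes, 6 neuromuscular junction genes, 5 developmental isoforms and 4 myogenic and fusion factors tested. In both comparisons with MaP -/- tumors none of the genes of these 7 lists was called. Among the 8 lists of other cell types, Lum was called higher in MaP R245W/- against MaP R172H/- tumors and Pdgfra lower in MaP R172H/- against MaP -/- tumors.

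The 10 genes outside the 33 whose log2 CPM was most like the mean of the 30 structural genes over the 18 tumors had a Spearman rho between 0.749 and 0.818. They were Haghl, Myom1, Tmem202, Foxs1, Fhl1, Myo18b, Myom3, Rnf187, Tpm2 and Mybpc1. Myom1 and Myom3 encode M-band proteins, Mybpc1 a myosin binding protein of slow fibers, Tpm2 a tropomyosin and Fhl1 a LIM protein of muscle, and 6 of the 10 were highest in JM1233. Myo18b was at 38.3 CPM in JM1233, 3.70 in JM1133 and 2.02 in JM1126, with a median of 0.247 CPM in the 17 tumors other than JM1233. The points share library depth.

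Since Acta1, Mylpf, Tnnt3 and Myh1 kept their calls without JM1233, the 250 bases before the start of their canonical transcripts are printed from GRCm39, with E-boxes (CANNTG, the letters that myogenic factors read) in capitals.
Acta1 chr8:124621687-124621936 (- strand): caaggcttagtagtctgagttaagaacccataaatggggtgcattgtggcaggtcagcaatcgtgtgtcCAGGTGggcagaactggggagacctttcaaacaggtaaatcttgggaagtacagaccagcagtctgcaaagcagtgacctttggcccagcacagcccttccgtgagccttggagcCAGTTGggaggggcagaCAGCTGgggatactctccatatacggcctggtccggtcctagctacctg
Mylpf chr7:126810530-126810779 (+ strand): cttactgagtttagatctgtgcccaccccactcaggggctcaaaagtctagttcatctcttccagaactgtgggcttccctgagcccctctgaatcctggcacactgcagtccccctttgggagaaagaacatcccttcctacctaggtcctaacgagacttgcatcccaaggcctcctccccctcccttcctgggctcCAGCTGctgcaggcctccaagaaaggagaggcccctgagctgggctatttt
Tnnt3 chr7:142052170-142052419 (+ strand): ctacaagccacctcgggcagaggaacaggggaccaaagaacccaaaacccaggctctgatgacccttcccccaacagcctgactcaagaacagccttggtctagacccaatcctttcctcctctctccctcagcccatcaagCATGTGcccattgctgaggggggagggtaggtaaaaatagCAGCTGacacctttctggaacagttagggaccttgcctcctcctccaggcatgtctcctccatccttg
Myh1 chr11:67090678-67090927 (+ strand): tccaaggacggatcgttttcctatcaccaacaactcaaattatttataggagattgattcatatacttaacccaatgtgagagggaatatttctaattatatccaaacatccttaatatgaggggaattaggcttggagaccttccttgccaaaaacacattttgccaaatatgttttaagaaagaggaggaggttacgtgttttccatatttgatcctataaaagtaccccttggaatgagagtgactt
Acta1 held 3 E-boxes, Tnnt3 2, Mylpf 1 and Myh1 none. In windows of this length before the starts of 21247 protein-coding genes, 64.9% held an E-box, which is its own reverse complement and so is found on both strands at once, and 27 of the 33 genes did (81.8%). The form CAGCTG, which lies within the E-box set, was found in 11.9% of all windows and in 11 of the 33 genes (33.3%), Acta1, Mylpf and Tnnt3 among them. TATAAA on the strand of the gene was found in 8.04% of all windows and in those of Myh1, Myh2 and Myh3. A serum response element of the CArG type was found in 1.42% of all windows and, among the 33, in Acta1, and a MEF2 site in 0.513% and, among the 33, in Klhl41. These are matches of letters in a short window, and nothing was measured at them here.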

How the data were processed

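Total RNA, depleted of ribosomal RNA, of 18 mouse mammary tumors was sequenced as stranded paired-end libraries. Per the methods of the study, reads were mapped by the authors to GRCm39 using STAR 2.7.10b. Gene counts from RSEM 1.3.3 with the GENCODE M34 annotation were deposited as whole numbers, not normalized. The reason that RSEM counts are whole is not given in the sources used here. Counts were normalized with TMM and tested with edgeR 4.0.16 (glmQLFit and glmQLFTest, filterByExpr) in R 4.3.3. Each mutant group was fitted with the MaP -/- tumors alone, and the mutants were compared in a fit of all 18 tumors without a platform term. A call needed a Benjamini-Hochberg FDR below 0.05 together with a log2 fold change beyond 2 in either direction. CPM used TMM library sizes, shares had exact 95% Clopper-Pearson intervals, and transcript lengths came from GENCODE M39, in which 56620 of 57126 identifiers matched. Fits were tested on simulated data. All 33 genes were described, with values in every tumor or group for the myosin heavy chains, troponins T and I, myogenic factors, Acta1, Ckm, Des and Pvalb, and the 10 most similar other genes were named by Spearman rho. Values of Myl1, Neb, Ttn and list genes were picked after they were seen. The genes and lists were chosen with earlier results of these data known. The study used DESeq2, here 1.42.0 as an alternative. Alignments used mafft 7.526. Values of 1 gene of the muscle lists are not reported here.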

Additional observations from a re-analysis of the deposited data

Results flagged for a closer look

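In 88 sets of 5 to 7 values, for each gene with more than 3 counts in a tumor of a genotype and for the summed level, a tumor far from the others was looked for with Dixon's ratio of the gap to the range on log2 CPM, which flags about 1 in 20 sets by chance. In all, 5 were found. In MaP R245W/- tumors, JM1233 stood apart for Tnnt1 at 44.8 CPM (gap 0.907 of the range), for Tnni1 at 33.5 CPM (0.817) and for Myod1 at 0.478 CPM (0.789). For the fast genes Myh4, Myh1 and Acta1 it did not, because JM1133 and JM1126 filled the range below it. In MaP R172H/- tumors, YZ7 stood apart for Neb at 101.2 CPM (0.634) and YZ3 for Ckm at 0.742 CPM (0.685), the latter on 21 counts.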

How the results depend on the processing

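The number of genes called between MaP R172H/- and MaP -/- tumors, 287 in all, was 491 without a filter on low counts, 105 with at least 10 counts in every tumor, 905 with DESeq2's Wald test, and 1051 and 1760 with fold change thresholds of 1 and none. None of the 33 genes was called under any of these settings. Between MaP R245W/- and MaP -/- tumors, DESeq2 called 206 genes, 16 of the 33 among them, a fit of all 18 tumors called 2, and leaving out each tumor in turn called 0 to 3. Between the mutants, where 526 genes were called, the number was 104 with at least 10 counts in every tumor, 1164 with DESeq2, 1392 and 2114 at the lower thresholds and 315 with the mutant groups alone. Of the 33 genes, 5 were called with at least 10 counts in every tumor, where 9 could be tested. In that setting 77 of 15544 genes were called higher. With each tumor left out, 4 to 22 of the 33 were called, the lowest without JM1233 and the highest without RM0014. In these 2 fits 383 of 22933 and 410 of 23080 genes were called higher. Scaling by DESeq2's size factors or by TMM without muscle genes gave 19 calls among the 33, as in the comparison itself. With these scalings 393 and 396 of 22481 genes were called higher. With the tumors of 1 mouse summed, 22 of 27 tested muscle genes were called between the mutants, where 408 of 22844 genes were called higher. Against MaP -/- tumors that setting called 0 of 19 muscle genes in MaP R172H/- and 0 of 23 in MaP R245W/- tumors. Over all genes it called 56 higher and 248 lower of 21772 in MaP R172H/- and 0 of 21795 in MaP R245W/- tumors.

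Against MaP -/- tumors, the small differences of MaP R172H/- tumors changed sign with single tumors left out: Neb -0.34 to 1.42, Ttn -0.49 to 0.14, Des -0.053 to 0.40, Klhl41 -0.039 to 0.26, Atp2a1 -0.031 to 0.32 and Ryr1 -1.25 to 0.015 on the log2 scale. With DESeq2, Neb was at -0.34. In MaP R245W/- against MaP -/- tumors Myl1 ran from -0.27 to 4.18. Between the mutants Tnni1 ran from -0.36 to 2.14, Casq1 from -0.45 to 1.48 and Mb from -0.33 to 1.74, the lowest in each case without JM1233. The cause was not tested. Per transcript length, the Tnnt3 share in JM1233 was 59.15%, the Myh3 shares in YZ3 and YZ4 were 6.66% and 6.52%, and the developmental share in YZ4 was 8.26%. Myod1 and Pax7, with at most 16 and 10 counts in a tumor, were tested by edgeR only without the filter, where they were not called, and DESeq2 gave them no adjusted p.

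No paired analysis was possible because the tumors of different genotypes share no mouse, and their numbers give only the order of the samples.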
